A study of Mus musculus with 32 samples.

Results

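Levels of 5 genes of C-type lectin receptors were followed in mouse tumour-associated macrophages, that is, myeloid cells taken from within tumours. These were Mgl2 and Clec10a, which encode the galactose-type lectins MGL2 and MGL1, Mrc1, which encodes the mannose receptor CD206, and Cd209a and Cd209d, which belong to the DC-SIGN family. They were chosen by name, with results of these arrays already known, and were found among 17097 genes on one chip and 22180 on the other, all 5 on both. Each gene was read from its probe set of highest mean signal among probe sets that carry 1 gene symbol. The p-values below come from fits over all genes tested on a chip, and because the genes were picked with results in view they are no independent support for a pattern.

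The study held 32 arrays in 12 groups and measured 3 experiments apart. In the first, CD11b-enriched cells came from spontaneous neuroblastomas of Th-MYCN transgenic mice (NB, 3 arrays) or from EG7 tumours in WT hosts (3 arrays), EG7 being a transplanted mouse thymoma line of T lymphocyte origin. In the second, CD11b-enriched cells came from EG7 tumours grown in Myd88-/- hosts or in WT hosts, with 5 arrays each. In the third, 2 populations were sorted from EG7 tumours: population C (CD11b+, Ly6C-, MHCII+) and population A (CD11b+, Ly6C+, MHCII-). Each population came from hosts with TNFR1-/-, Myd88flox/flox and Tie2-Cre together (double KO), from TNFR1-/- hosts, from Myd88flox/flox hosts with Tie2-Cre (Myd88 cKO), and from WT hosts, with 2 arrays per genotype and population. The transplanted tumour cells themselves carried none of these host changes. Tie2-Cre acts in endothelial as well as blood-forming cells, so the deletion in these hosts was not limited to macrophages. The labels give no ages, and they do not state whether the arrays in a group represent different animals. The p-values may therefore reflect technical spread between samples only.

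The receptors described here sit on the surface of macrophages and dendritic cells, bind sugars on microbes, glycoproteins and tumour cells, and carry their cargo into the cell. MGL1 and MGL2 bind terminal galactose and N-acetylgalactosamine, whereas the mannose receptor and human DC-SIGN bind mannose and fucose. The mouse has a family of Cd209 genes, of which Cd209d encodes SIGNR3. Interleukin 4, acting through the transcription factor STAT6, is known to raise Mrc1, Mgl2 and Clec10a in mouse macrophages, and for this reason these genes serve as markers of alternative activation. Myd88 is the adaptor of most Toll-like receptors and of the interleukin 1 receptor family, and TNFR1, encoded by Tnfrsf1a, is the main receptor for tumour necrosis factor.

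The labels were checked first. In the sorted arrays the Myd88 signal fell by 2.07 ± 0.27 (SE) on the log2 scale in Myd88 cKO against WT cells of population A (limma adjusted p = 0.00317). In population C it fell by 1.99 ± 0.27 (adjusted p = 0.0464). In double KO it fell by 1.79 ± 0.27 in A (adjusted p = 0.0101), and in C the difference was -1.14 ± 0.27 (adjusted p = 0.129). In Myd88-/- hosts it fell by 0.75 ± 0.10 (adjusted p = 0.00174). Tnfrsf1a passed no test against WT, and whether its probe set lies in the deleted part is not stated in the labels. Arrays have no counts or read depth, so their number sets the precision. Values are deposited log2 signals, in which 1 unit is a 2-fold difference, and levels of different probe sets are not compared. A difference was called at an adjusted p under 0.05. The 2 A_WT arrays correlated at 0.948 over all genes of the chip, the lowest value among the groups. Against the sorting gates, Ly6c2 was lower in C than in A (mean 8.94 in C and 12.15 in A) and the MHC class II gene H2-Aa was higher (12.14 in C and 10.18 in A), in the average over genotypes, and all 19 mature macrophage markers exceeded the filter level on every sorted array. By genotype, 3 of 6 gate genes were higher in C in WT, TNFR1-/- and double KO. In these, 1, 2 and 1 were lower, beside 13.5, 12.6 and 5.46 percent of all genes called. In Myd88 cKO 0 were higher and 1 was lower, beside 1.97 percent. Their median difference of C from A was 0.16 in Myd88 cKO, 1.18 in WT, 1.18 in TNFR1-/- and 0.69 in double KO. Within A, their median in Myd88 cKO against WT was 0.78, with 0 called.

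Mgl2 had the widest range of the 5 genes across population C. Its log2 signal was 10.11 and 10.63 in double KO, 9.24 and 8.89 in TNFR1-/-, 7.33 and 7.40 in Myd88 cKO, and 6.82 and 6.60 in WT cells of population C. The 4 genotypes did not overlap, and both TNFR1-deficient groups lay above both groups with intact TNFR1. For this and later statements on genotypes within a population, the share of all genes that separate in the same way is not given. Non-overlap there only describes the values. Mgl2 rose by 3.66 ± 0.23 in double KO against WT, a 12.6-fold difference (95% interval of the log2 difference 3.18 to 4.14, limma adjusted p = 3.088e-06), and it was first by p-value of 16524 genes. In TNFR1-/- against WT it rose by 2.36 ± 0.23, or 5.12-fold (adjusted p = 0.00092), again first by p-value. In Myd88 cKO against WT the difference was 0.66 ± 0.23 (95% interval 0.17 to 1.14, adjusted p = 0.998) and was not called. The 3 comparisons share the C_WT arrays.

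Calls in population C were rare, which gives these values their scale. In double KO against WT, 2 of the 5 lectin genes were called, both higher, beside 0.309 percent of all genes. In TNFR1-/- against WT the count was also 2, both higher, beside 0.0726 percent, which is 12 genes. In Myd88 cKO against WT 0 of the 5 were called, beside 0.0121 percent, which is 2 genes.

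The order of the Mgl2 levels was also examined between neighbours, in comparisons added after the values had been seen. Double KO was above TNFR1-/- by 1.31 ± 0.23 (95% interval 0.82 to 1.79), which was not called (adjusted p = 0.145) although the arrays did not overlap. This comparison called 0.00605 percent of all genes. Double KO was above Myd88 cKO by 3.01 ± 0.23 (adjusted p = 4.122e-05), beside 0.472 percent of genes called. The departure of the double KO from the sum of the 2 single differences was 0.65 ± 0.32 for Mgl2 in population C (95% interval -0.03 to 1.33, adjusted p = 1), where 0 percent of genes were called.

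In population A the pattern of Mgl2 was different. The signal was 5.49 and 5.22 in double KO, 6.26 and 5.62 in TNFR1-/-, 6.24 and 6.28 in Myd88 cKO, and 5.21 and 5.50 in WT cells of population A. Double KO and WT cells overlapped, with a difference of 0.00 ± 0.23 (95% interval -0.48 to 0.48, adjusted p = 1), while both single genotypes lay above WT. The double KO and WT arrays read Mgl2 near the lower end of the chip. Its percentiles among all probe sets of an array were 52.8 and 45.9 in double KO and 43.7 and 49.7 in WT. The difference of 0.00 therefore does not show equal expression. Mgl2 rose by 0.91 ± 0.23 in Myd88 cKO (adjusted p = 0.0456), and in TNFR1-/- the difference was 0.59 ± 0.23 (adjusted p = 0.189). The call for Myd88 cKO was lost without either of its arrays (adjusted p = 0.15 and 0.185) and without WT replicate 1 (log2 difference 0.76, adjusted p = 0.09). The departure of the double KO from the sum of the single differences was -1.49 ± 0.32 in A (adjusted p = 0.121), and without A_WT replicate 2 it was -1.63 and was called (adjusted p = 0.0274). With all arrays 0.0726 percent of genes were called in this comparison, and without that array 3.32 percent.

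The difference between populations in the response was tested directly. The double KO difference from WT was larger in C than in A by 3.66 ± 0.32 for Mgl2 (adjusted p = 0.00028) and by 2.21 ± 0.31 for Cd209d (adjusted p = 0.0242), so 2 of the 5 genes were called beside 0.0363 percent of all genes, or 6 genes. The Cd209d call was lost without replicate 1 of the A_WT arrays or without any 1 of the C_WT and C_doubleKO arrays (adjusted p = 0.0613 to 0.196), whereas that of Mgl2 was kept in each such fit. For the TNFR1-/- difference the same test gave 1.77 ± 0.32 for Mgl2 (adjusted p = 0.176) and 2.13 ± 0.31 for Cd209d (adjusted p = 0.112), and 0 percent of genes were called. Without A_WT replicate 2 both were called, at 1.63 for Mgl2 (adjusted p = 0.0367) and 2.20 for Cd209d (adjusted p = 0.015), in a fit that called 1.81 percent of all genes. For the Myd88 cKO difference it gave -0.25 ± 0.32 for Mgl2 (adjusted p = 0.834) and -1.77 ± 0.54 for Mrc1 (adjusted p = 0.426), with 0 percent called. These tests share the WT arrays of both populations. The WT and double KO arrays of A read Mgl2 and Cd209d near the lower end of the chip.

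**Figure D1:**
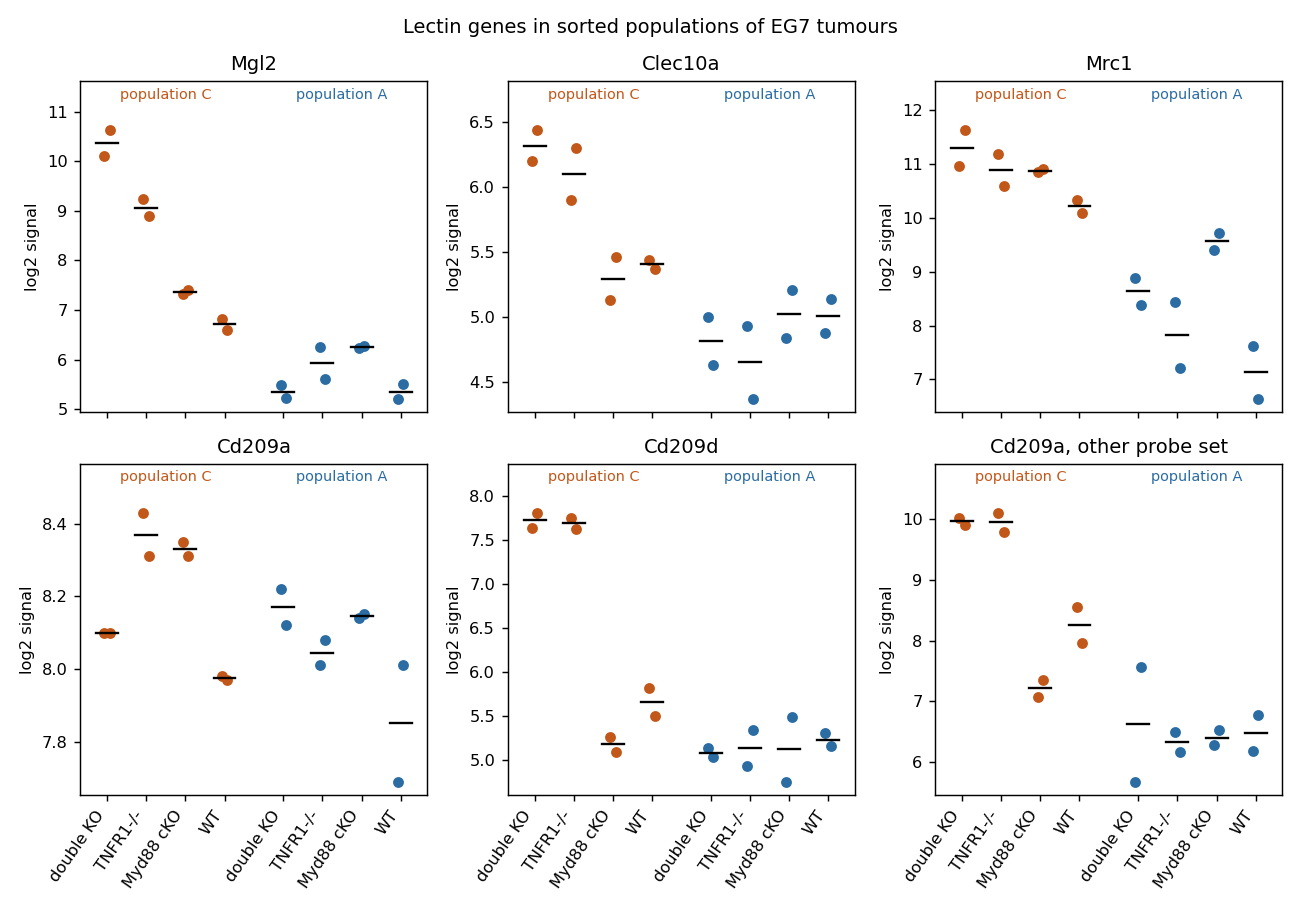
Log2 signal of the 5 lectin genes in the sorted arrays, with the other Cd209a probe set in the last panel. Each point is 1 array, the black line is the mean of the 2 arrays of a group, population C is left of population A, and the vertical scales differ between panels. Mgl2 in C falls in 4 separate levels, 10.11 and 10.63 in double KO at the top and 6.82 and 6.60 in WT at the bottom.

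Clec10a, the neighbouring paralogue of Mgl2, was read close to the lower end of this chip. It exceeded the level used as a filter, the 40th percentile of all probe sets of an array, on 9 of the 16 sorted arrays. In population C its signal was 6.20 and 6.44 in double KO, 5.90 and 6.30 in TNFR1-/-, 5.13 and 5.46 in Myd88 cKO, and 5.44 and 5.37 in WT. The arrays of double KO and TNFR1-/- overlapped each other and lay above all arrays with intact TNFR1. Against WT the difference was 0.92 ± 0.22 in double KO (adjusted p = 0.151) and 0.70 ± 0.22 in TNFR1-/- (adjusted p = 0.685), and neither was called. Against Myd88 cKO the double KO difference was 1.03 ± 0.22 (adjusted p = 0.0675). In population A all 8 arrays lay between 4.37 and 5.21, and the genotypes overlapped.

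Mrc1 followed another order. In population C it was high in every genotype, at 10.96 and 11.63 in double KO, 11.19 and 10.59 in TNFR1-/-, 10.85 and 10.90 in Myd88 cKO, and 10.33 and 10.09 in WT. All 6 arrays of the changed genotypes lay above both WT arrays, which all these comparisons share. The same was so for the Cd209a probe set of higher mean, described below. The Mrc1 differences of 1.09 ± 0.38, 0.68 ± 0.38 and 0.67 ± 0.38 passed no test (adjusted p = 0.542 in double KO, 0.998 in TNFR1-/- and 0.998 in Myd88 cKO). In population A the signal was 8.88 and 8.39 in double KO, 8.44 and 7.22 in TNFR1-/-, 9.41 and 9.72 in Myd88 cKO, and 7.62 and 6.64 in WT. The Myd88 cKO arrays were the highest of population A and overlapped no other genotype. Mrc1 rose by 2.44 ± 0.38 in Myd88 cKO against WT, or 5.41-fold (adjusted p = 0.00734), and by 1.51 ± 0.38 in double KO, or 2.84-fold (adjusted p = 0.038). The TNFR1-/- difference was 0.70 ± 0.38 (adjusted p = 0.341).

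In population A the Myd88 cKO comparison called 2 of the 5 lectin genes, Mrc1 and Mgl2, both higher, beside 3.18 percent of all genes. Double KO against WT called 1, Mrc1, beside 5.75 percent, and TNFR1-/- against WT called 0 beside 0.654 percent. The TNFR1-/- share was 10.7 percent without A_WT replicate 2 and 0.00651 percent in a fit of only the arrays compared, with 0 lectin genes called in either. The WT arrays of A were the pair that agreed least, and without WT replicate 2, the lower Mrc1 array, the double KO rise was no longer called (log2 difference 1.01, adjusted p = 0.148). It was also lost without double KO replicate 1 (1.26, adjusted p = 0.256), and the Myd88 cKO rise was lost without Myd88 cKO replicate 2 (2.28, adjusted p = 0.0936). Some markers of mature macrophages were higher in A together with Mrc1. Of 19 measured markers, 7 were higher and 1 was lower in Myd88 cKO than in WT cells of A, with C1qa higher by 2.30 and Ms4a7 by 2.79 on the log2 scale. The mean signal of these 19 markers was 8.356 and 8.867 in Myd88 cKO, 7.741 and 7.852 in double KO, and 7.565 and 7.861 in WT cells of A. In TNFR1-/- cells of A it was 6.998 and 7.469, below WT, whereas the Mrc1 difference from WT was 0.70 ± 0.38. The part of these markers in the Mrc1 difference was not tested. In bulk samples, fewer cells of a type and less RNA per cell cannot be told apart.

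Among the DC-SIGN family genes, Cd209d separated population C into high and low genotypes. Its signal was 7.64 and 7.81 in double KO, 7.75 and 7.63 in TNFR1-/-, 5.27 and 5.10 in Myd88 cKO, and 5.82 and 5.50 in WT cells of C. The 4 arrays without TNFR1 lay within 0.18 of each other and above the remaining 4 arrays by at least 1.81. Cd209d rose by 2.07 ± 0.22 in double KO against WT, or 4.18-fold (adjusted p = 0.00069), and by 2.03 ± 0.22 in TNFR1-/-, or 4.08-fold (adjusted p = 0.00113). Without replicate 2 of the WT arrays the TNFR1-/- difference was 1.87 and was not called (adjusted p = 0.0575). In Myd88 cKO the difference was -0.48 ± 0.22 (adjusted p = 0.998), and double KO was above Myd88 cKO by 2.54 ± 0.22 (adjusted p = 6.94e-05). Double KO and TNFR1-/- differed by 0.04 ± 0.22 (95% interval -0.43 to 0.50). In population A all 8 arrays lay between 4.76 and 5.49, and 6 of them exceeded the filter level. The Myd88 cKO arrays of C lay at percentiles 42.8 to 48.5 of all probe sets and the WT arrays at 52.6 to 61.3. The rises against them thus start from a low signal.

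Cd209a was represented by a pair of probe sets on this chip, and they disagreed. The one of higher mean, probe set 17507171, lay between 7.69 and 8.43 on all 16 arrays and was called in no comparison. The other, 17507161, read 10.03 and 9.91 in double KO, 10.11 and 9.80 in TNFR1-/-, 7.08 and 7.36 in Myd88 cKO, and 8.56 and 7.97 in WT cells of population C. Its 4 arrays without TNFR1 lay above the other 4 arrays of C. Against WT its differences were 1.71 ± 0.43 in double KO (adjusted p = 0.165), 1.69 ± 0.43 in TNFR1-/- (adjusted p = 0.357) and -1.05 ± 0.43 in Myd88 cKO (adjusted p = 0.998), none called. Double KO against Myd88 cKO was called, with a rise of 2.75 ± 0.43 or 6.73-fold (adjusted p = 0.00646), where probe set 17507171 gave -0.23 ± 0.14. In population A probe set 17507161 lay between 5.68 and 7.57. Any result for Cd209a in the sorted cells therefore depends on the probe set, and 17507161 was taken up after its values were seen.

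**Figure D2:**
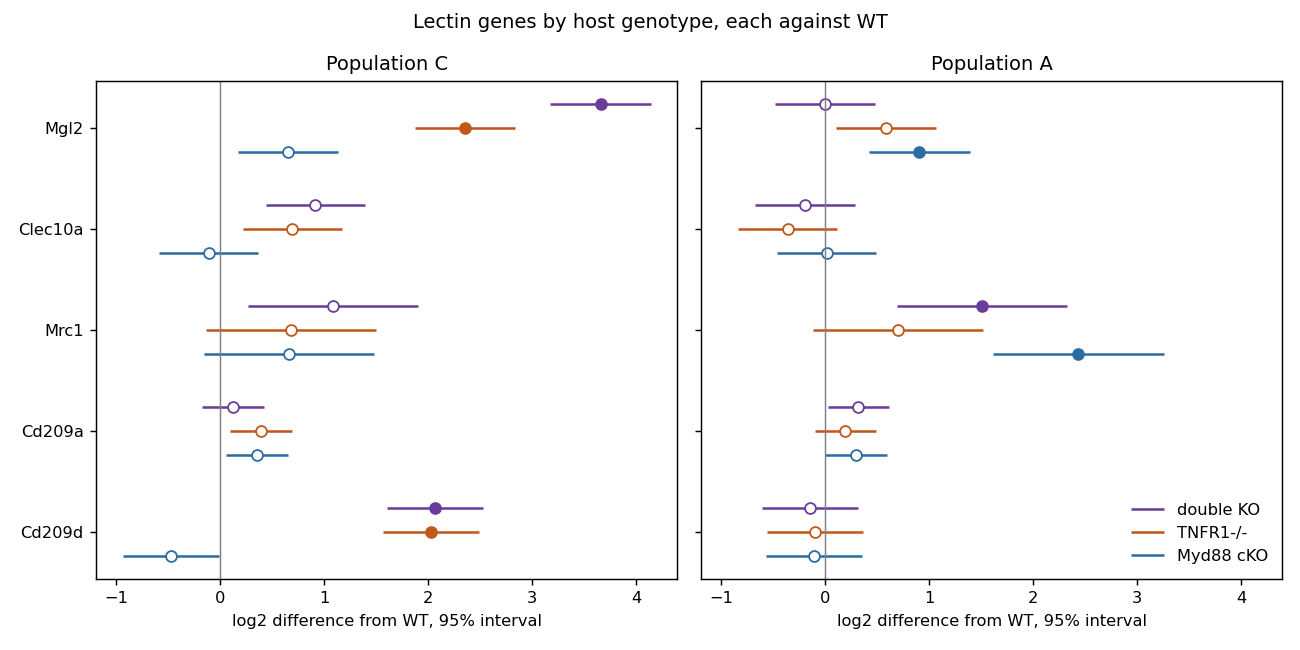
Log2 difference of each genotype from WT in population C (left) and population A (right), from the fit of all 16 sorted arrays, with 95% intervals as bars. Filled points were called at an adjusted p under 0.05. Mgl2 and Cd209d were called in C in double KO and TNFR1-/-, Mrc1 in A in Myd88 cKO and double KO, and Mgl2 in A in Myd88 cKO.

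Promoter sequence was examined because Cd209d, the related gene Cd209e and the second Cd209a probe set were high in the same arrays of population C. The following 300 bases run from 250 before to 50 after the transcript start, as RefSeq gives it on GRCm38.p6, and Mgl2 is shown for contrast. The regions are chr11:70130107-70130406 (plus strand) for Mgl2, chr8:3878450-3878749 (minus) for Cd209d, chr8:3854237-3854536 (minus) for Cd209e and chr8:3748935-3749234 (minus) for Cd209a. Capitals mark a composite motif known to be bound by an ETS factor such as PU.1 together with IRF4 or IRF8: GGAA and GAAA with 2 bases of any kind between them. In these promoters it lies on the opposite strand, so it is read here as TTTC, 2 bases and TTCC.
Mgl2: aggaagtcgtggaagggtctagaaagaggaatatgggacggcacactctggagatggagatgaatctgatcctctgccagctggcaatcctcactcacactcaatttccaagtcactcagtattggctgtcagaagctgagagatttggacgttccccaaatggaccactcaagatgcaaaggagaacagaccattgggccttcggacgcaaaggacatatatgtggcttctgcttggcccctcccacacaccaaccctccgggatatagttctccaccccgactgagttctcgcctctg
Cd209d: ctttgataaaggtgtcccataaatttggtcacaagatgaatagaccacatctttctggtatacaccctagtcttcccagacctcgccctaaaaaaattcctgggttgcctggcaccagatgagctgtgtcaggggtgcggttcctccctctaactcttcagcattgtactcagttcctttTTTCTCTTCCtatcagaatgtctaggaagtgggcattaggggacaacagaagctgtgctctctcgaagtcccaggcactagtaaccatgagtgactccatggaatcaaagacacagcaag
Cd209e: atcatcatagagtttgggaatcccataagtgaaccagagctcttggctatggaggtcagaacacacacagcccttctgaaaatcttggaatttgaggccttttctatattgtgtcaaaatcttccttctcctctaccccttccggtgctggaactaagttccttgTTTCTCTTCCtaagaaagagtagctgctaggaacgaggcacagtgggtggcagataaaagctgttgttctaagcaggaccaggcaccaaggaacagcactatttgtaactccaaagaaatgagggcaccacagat
Cd209a: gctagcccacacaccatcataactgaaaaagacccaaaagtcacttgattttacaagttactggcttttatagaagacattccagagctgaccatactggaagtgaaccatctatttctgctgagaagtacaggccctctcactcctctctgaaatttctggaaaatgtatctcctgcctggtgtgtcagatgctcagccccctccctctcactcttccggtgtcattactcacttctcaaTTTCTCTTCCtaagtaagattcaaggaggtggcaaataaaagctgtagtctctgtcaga

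Among 32851 promoters of this length in the table, 2.72 percent held this ETS-IRF composite on either strand. It was present in the windows of Cd209d, Cd209e and Cd209a, beginning 70, 85 and 9 bases before the start, and not in those of Mgl2, Mrc1, Cd209b, Cd209c, Cd209f or Cd209g. These paralogues descend from common ancestors, so shared letters are not separate observations, and a match is a description and not a bound site. In all, 10 motifs were searched on both strands. TTC and GAA with 4 bases between them, the spacing preferred by STAT6, was in 6.95 percent of promoters and in that of Cd209e only among these genes, where it overlaps the composite motif by 4 bases. GGAAGT, the core of ETS sites, was in 23.8 percent, with 1 match each in Mgl2, Mrc1, Cd209a and Cd209d. TTNNGNAA, a loose C/EBP motif, was in 40.7 percent, among them Mgl2, Mrc1, Cd209a, Cd209b, Cd209c and Cd209e. The AP-1 motif TGANTCA was in 7.81 percent, and the AP-1-IRF composite, in which 3 bases and GAAA follow that motif, was in 0.1 percent, with Cd209f and Cd209g among both. TTC and GAA with 3 bases between them (8.3 percent), GAAA repeated after 2 bases (3.44 percent), AGAGGAAGT (1.0 percent) and the NF-kB motif (4.51 percent) had no match in the windows of these 9 genes.

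The populations were then compared with each other. Averaged over the 4 genotypes, Mgl2 was higher in C than in A by 2.65 ± 0.11 (6.28-fold, adjusted p = 4.222e-09), Mrc1 by 2.53 ± 0.19 (5.77-fold, adjusted p = 7.779e-07), and Cd209d by 1.42 ± 0.11 (2.67-fold). Cd209d exceeded the filter level on 6 of the 8 A arrays. Clec10a read 0.91 ± 0.11 higher, but it exceeded the filter level on all 8 arrays of C and on 1 of 8 in A. It was thus tested only because of population C, and its call and the size of its difference are no support. Cd209a differed by 0.14 ± 0.07 with its chosen probe set (adjusted p = 0.134) and by 2.39 ± 0.21 with probe set 17507161 (adjusted p = 2.59e-06). Thus 4 of the 5 genes were called, all higher in C, or 3 of the other 4 with Clec10a set aside, beside 32.3 percent of all genes called in either direction and 21.3 percent higher. All 8 arrays of C lay above all 8 arrays of A for Mgl2 and for Mrc1, as they did, in either direction, for 5.98 percent of genes.

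The gap for Mgl2 differed in size by genotype, as the tests of the response above already show for double KO. C exceeded A by 5.02 ± 0.23 in double KO (32.3-fold), by 3.13 ± 0.23 in TNFR1-/- (8.72-fold), by 1.11 ± 0.23 in Myd88 cKO (2.15-fold) and by 1.36 ± 0.23 in WT (2.56-fold), and each was called. The A arrays of double KO and WT read Mgl2 near the lower end of the chip, which limits what these fold sizes say. For Mrc1 the gaps were 2.66 in double KO, 3.06 in TNFR1-/-, 1.31 in Myd88 cKO and 3.08 in WT, each ± 0.38, of which that in Myd88 cKO was not called (adjusted p = 0.0965). Cd209d was called in double KO (2.64 ± 0.22) and in TNFR1-/- (2.55 ± 0.22), with values of 0.06 in Myd88 cKO and 0.43 in WT that were not. The Clec10a differences were 1.51 in double KO, 1.45 in TNFR1-/-, 0.27 in Myd88 cKO and 0.40 in WT, and are given without a call because its A arrays of double KO and TNFR1-/- were all below the filter level. With Clec10a set aside, the number of the other 4 lectin genes called was 3 in double KO beside 5.46 percent of all genes, 3 in TNFR1-/- beside 12.6 percent, 1 in Myd88 cKO beside 1.97 percent and 2 in WT beside 13.5 percent. The Myd88 cKO call of Mgl2 was lost when any 1 of its 4 arrays was left out.

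Markers of mature macrophages were also higher in C, 16 of 19 in the average over genotypes, with 1 lower. This comparison and the counts below stand beside 32.3 percent of all genes called in either direction and 21.3 percent higher. Population C is defined by MHC class II, which dendritic cells carry as well. Of 16 dendritic cell markers, 8 were higher and 1 was lower in C than in A. Markers of other cell types were mostly lower in C where called: 8 of 11 for fibroblasts (median difference -0.52), 8 of 12 for T lymphocytes and EG7 cells (-0.29), 7 of 11 for neutrophils (-0.33), 6 of 11 for endothelium (-0.26) and 6 of 11 for monocytes (-0.48, with 1 higher). The part of all these lists in the lectin gaps was not tested.

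Genes known to respond to interleukin 4 were examined as a list that leaves out the 5 lectin genes. In double KO against WT in population C, 7 of 29 measured genes rose and 0 fell, beside 0.309 percent of all genes called. The median difference was 0.51 against 0.00 over all genes. The called genes of smallest p were Ccl17, a chemokine that draws T helper cells, higher by 4.10 ± 0.31, Ccl22, its close relative, by 2.46 ± 0.31, the transcription factor Irf4 by 1.56 ± 0.21, and Retnla, a secreted protein of alternative activation, by 4.05 ± 0.58. In TNFR1-/- 1 gene rose, Ccl17 by 2.63 ± 0.31 (median of the list 0.42, all genes -0.02), and in Myd88 cKO 1 rose, Chil3 by 3.54 ± 0.50 (median 0.14, all genes -0.01). Of all genes, 0.0726 percent were called in TNFR1-/- and 0.0121 percent in Myd88 cKO. In population A, 3 of the 29 rose in double KO, 0 in TNFR1-/- and 8 in Myd88 cKO, and 0 fell in any of the 3. The shares of all genes called were 5.75 percent in double KO, 0.654 in TNFR1-/- and 3.18 in Myd88 cKO. Folr2, the folate receptor of resident macrophages, rose in A by 2.52 ± 0.22 in Myd88 cKO and by 1.47 ± 0.22 in double KO.

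Other C-type lectin receptors did not move as a block. Of 27 that passed the filter, 1 was called higher (Cd209e) and 2 fell in double KO against WT in C, beside 0.309 percent of all genes. Their median was -0.06 against 0.00 over all genes. Cd209e had a signal of 5.77 and 6.83 in double KO, 5.95 and 5.11 in TNFR1-/-, 4.58 and 4.60 in Myd88 cKO, and 4.70 and 4.34 in WT cells of C. It exceeded the filter level on these 4 TNFR1-deficient arrays and on no other sorted array. It was thus tested only because of the groups in which it is high, and the double KO difference of 1.78 ± 0.30 (adjusted p = 0.0197), taken against WT arrays below that level, is no support. The TNFR1-/- difference was 1.01 ± 0.30 (adjusted p = 0.559). Clec4e, which encodes the receptor Mincle, fell by 2.55 ± 0.40 and its neighbour Clec4d, which encodes MCL, fell by 1.75 ± 0.33. In TNFR1-/- and in Myd88 cKO 0 of the 27 were called in C, with medians of 0.04 and 0.01. In population A 0 were called in double KO, 1 rose in TNFR1-/- and 3 rose in Myd88 cKO, among them Clec7a, the beta-glucan receptor Dectin-1, by 0.97 ± 0.23. These counts stand beside 5.75, 0.654 and 3.18 percent of all genes called.

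The genes whose pattern was most like each lectin gene were found over the 16 sorted arrays, after the mean of each population had been taken out, among 16523 other genes. These are descriptions over arrays that share genotype, chip and normalization. For Mgl2 they were Ccl17 (Pearson r = 0.974), the growth factor receptor gene Gfra2 (0.958) and Ccl22 (0.93). Ccl17 read 9.80 and 10.35 in double KO, 9.14 and 8.07 in TNFR1-/-, 7.10 and 6.80 in Myd88 cKO, and 5.99 and 5.96 in WT cells of C, the same order of genotypes as Mgl2. For Cd209d they were Kmo, an enzyme of tryptophan breakdown (0.922), the chemokine receptor gene Ccr7 (0.916) and the transcription factor gene Stat4 (0.903). Within population C alone these 3 had r of 0.974, 0.983 and 0.973, and within population A 0.151, 0.385 and -0.104. Cd209d was read at a low signal in A, which limits what r says there.

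For Clec10a the most similar were Net1 (0.867), Ccr7 (0.862) and Edn1, which encodes endothelin 1 (0.861). For Mrc1 they were Arg1 (0.921), which encodes arginase 1 and is another gene of alternative activation, Dhrs3 (0.908) and Slc38a9 (0.901), with r in population A of 0.956, 0.908 and 0.925. For the chosen Cd209a probe set they were B3gat3 (0.82), Tiprl (0.817) and Aph1c (0.801). Among the lectin genes, over the 8 arrays of C, r was 0.906 between Mgl2 and Clec10a, 0.901 between Mgl2 and Cd209d, 0.927 between Clec10a and Cd209d, 0.804 between Mgl2 and Mrc1 and 0.556 between Mrc1 and Cd209d. In A the first 3 of these were 0.321, -0.225 and 0.11. Of the 8 A arrays, Clec10a exceeded the filter level on 1 and Cd209d on 6. The r values in A thus rest on low signals and do not show that the genes vary together only in C.

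**Figure D3:**
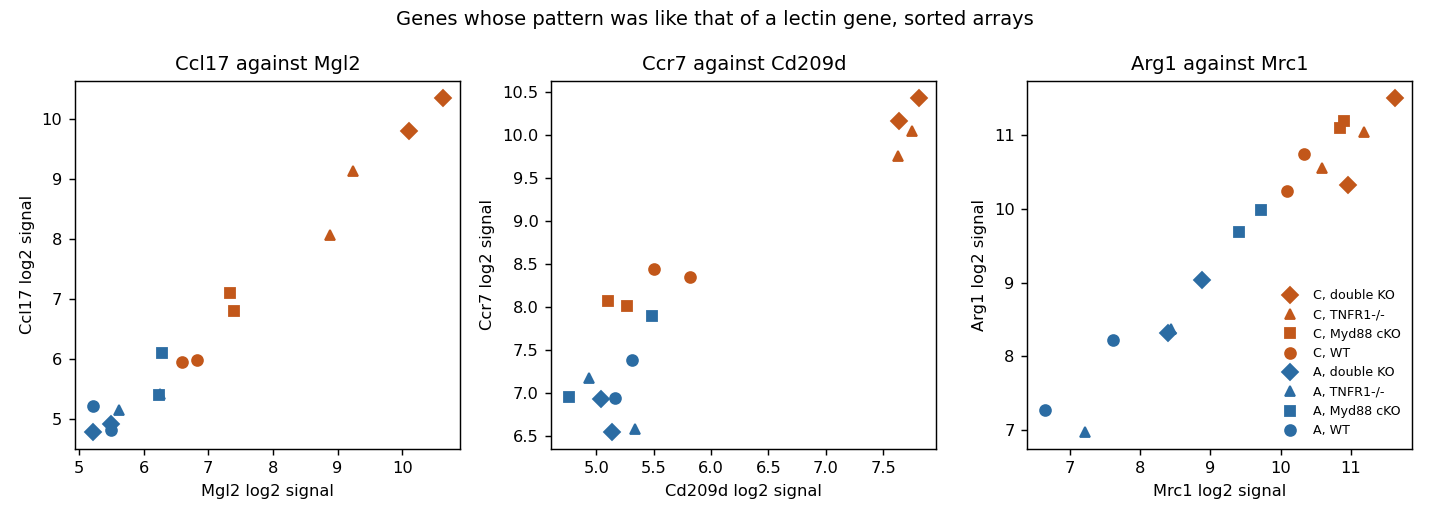
Log2 signal of Ccl17 against Mgl2, Ccr7 against Cd209d and Arg1 against Mrc1 on the 16 sorted arrays, 1 point per array, with population C in orange and A in blue and a marker shape for each genotype. Ccl17 follows Mgl2 from its lowest to its highest value, while Ccr7 and Cd209d are both high in the 4 TNFR1-deficient arrays of C and Cd209d hardly varies in A.

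Markers of dendritic cells were set beside Mgl2 and Cd209d in population C. The mean signal of 16 such markers was 6.959 and 6.969 in double KO, 6.766 and 6.889 in TNFR1-/-, 6.431 and 6.492 in Myd88 cKO, and 6.459 and 6.549 in WT cells of C, so the TNFR1-deficient arrays were again the 4 highest. Of the 16, 2 were called in double KO against WT, beside 0.309 percent of all genes. These were Ccr7 (higher by 1.90) and Fscn1, which encodes fascin (higher by 0.98). The median difference of the 16 was 0.36. In TNFR1-/- 0 were called, beside 0.0726 percent of all genes, and the median was 0.18. Mature macrophage markers had 0 calls in either comparison, with medians of -0.18 and -0.32. The part of the dendritic cell markers in the lectin differences was not tested.

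The tumour model comparison asked how macrophages of a spontaneous tumour differ from those of a transplanted one, and 0 of the 5 lectin genes were called in it, beside 14.7 percent of all genes. Mgl2 read 6.91, 8.25 and 7.17 in NB, against 8.75, 8.09 and 8.83 in EG7. The second NB array overlapped EG7, and the difference was -1.11 ± 0.39 (adjusted p = 0.109). Without that array the fall was called at -1.52 (adjusted p = 0.0136). This NB array also stood apart in the genes of the sorting gates, with a mean signal over 6 gate genes of 11.37, against 9.81 and 9.93 on the other NB arrays and 11.51 to 11.70 in EG7.

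Clec10a read 11.44, 9.86 and 10.06 in NB, against 9.57, 9.25 and 8.98 in EG7, so every NB array was higher, by 1.19 ± 0.43 in the mean, yet without a call (adjusted p = 0.117). Mrc1 read 12.36, 11.13 and 11.49 in NB, against 11.25, 10.75 and 11.88 in EG7, and the models overlapped (0.37 ± 0.40, adjusted p = 0.594). Groups failed to overlap for 36.1 percent of all genes. The 2 galactose lectin genes therefore had differences of opposite sign, neither of them called.

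Cd209a read 7.40, 4.21 and 3.86 in NB, against 7.58, 7.52 and 7.83 in EG7, so every NB array was lower. The first NB array was close to EG7 and the other 2 were far below, and the difference of -2.49 ± 0.88 was not called (adjusted p = 0.115), but without the first NB array it was -3.61 (adjusted p = 0.000866). Cd209d read 7.44, 5.31 and 5.82 in NB, against 5.82, 5.24 and 5.32 in EG7 (0.73 ± 0.53, adjusted p = 0.41), with the first NB array highest. Among the 5 other genes of the family, Cd209b, Cd209f and Cd209g were higher on every NB array than on any EG7 array, the opposite of Cd209a. For Cd209c and Cd209e the models overlapped. Groups failed to overlap, in either direction, for 36.1 percent of all genes. Cd209g read 7.65, 9.65 and 10.06 in NB, against 4.86, 6.14 and 3.29 in EG7, and Cd209f read 9.66, 8.77 and 9.34 in NB, against 7.24, 7.96 and 5.18 in EG7. These were looked up after the values were seen and carry no test here.

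Markers of cell types other than macrophages differed between the models. The counts below stand beside 14.7 percent of all genes called in this comparison. The mean signal of 15 markers of neuroblastoma and sympathetic neurons lay between 7.74 and 8.91 in NB, against 4.03 to 4.14 in EG7, and that of 13 endothelial markers between 7.53 and 8.47 in NB, against 5.90 to 6.43 in EG7. T lymphocyte and EG7 markers went the other way, with 9 of 12 tested lower in NB and 0 higher (median difference -2.74), and a mean signal over 14 of 4.03 to 5.035 in NB, against 6.86 to 7.05 in EG7. Of 13 dendritic cell markers 5 were higher and 1 was lower in NB. The mean over 18 mature macrophage markers was 10.54 to 10.78 in NB, against 9.77 to 10.14 in EG7. Their part in the lectin differences was not tested. Of 24 other C-type lectin receptors, 5 were higher and 3 were lower in NB, among them Colec12 (higher by 2.89 ± 0.18), Clec1b (higher by 3.15 ± 0.56), Ly75, also called DEC-205 (log2 difference -2.26), and Clec5a (-2.06). Of the 28 genes of alternative activation 1 was higher and 2 were lower, with Ccl17 lower, at 6.42 in NB against 8.55 in EG7 (difference -2.12, adjusted p = 0.0164).

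**Figure D4:**
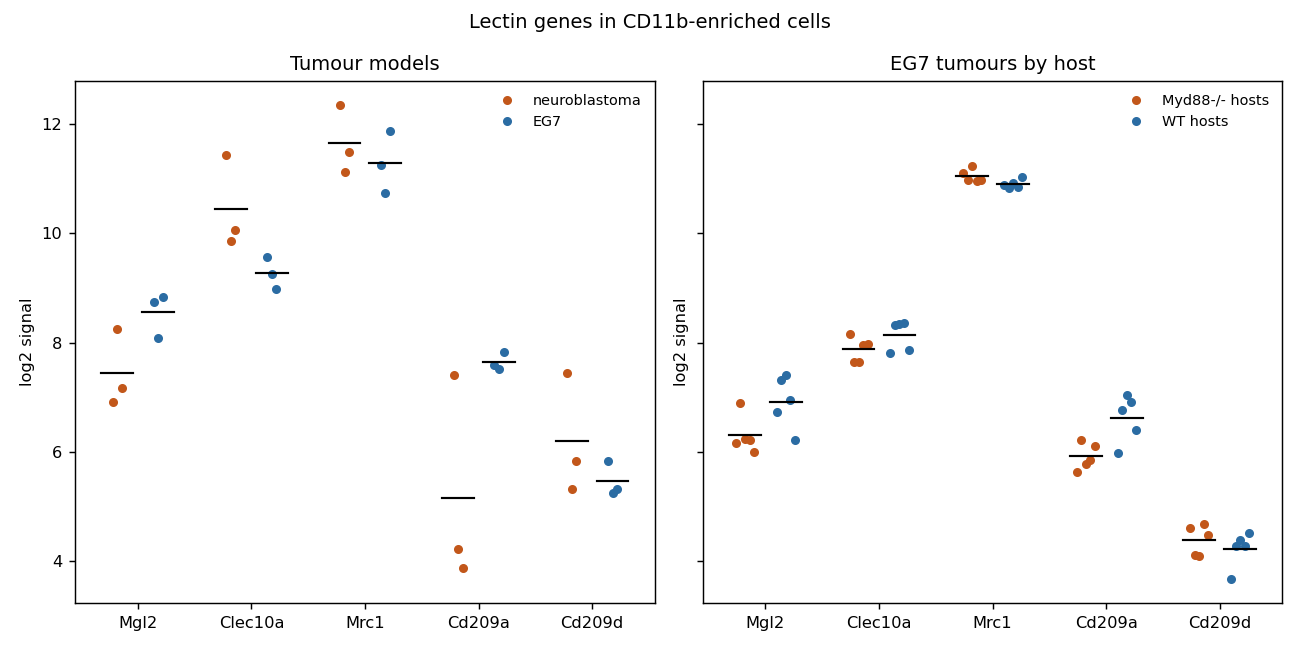
Log2 signal of the 5 lectin genes in CD11b-enriched cells, with neuroblastoma left of EG7 tumours (3 arrays each) and Myd88-/- left of WT hosts (5 arrays each). Points are arrays and black lines are group means. Cd209a in neuroblastoma splits into 1 array at 7.40 and 2 at 4.21 and 3.86, and all Mrc1 arrays of the host experiment lie between 10.84 and 11.23.

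In the host experiment 0 of the 5 lectin genes were called either, beside 1.48 percent of all genes. Mgl2 read 6.16, 6.89, 6.23, 6.21 and 6.0 in Myd88-/- hosts, against 6.72, 7.31, 7.40, 6.94 and 6.22 in WT hosts. The groups overlapped, and the difference was -0.62 ± 0.22 (95% interval -1.09 to -0.15, adjusted p = 0.24). Cd209a read 5.62, 6.21, 5.78, 5.84 and 6.10 in Myd88-/- hosts, against 5.98, 6.76, 7.03, 6.91 and 6.40 in WT hosts, and only the first WT array lay within the range of the knockout. The difference of -0.71 ± 0.18 missed the threshold (adjusted p = 0.0933), and without the first WT array it was -0.87 and was called (adjusted p = 0.0178).

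The remaining lectin genes differed less. Clec10a read 8.15, 7.64, 7.65, 7.95 and 7.98 in Myd88-/- hosts, against 7.81, 8.32, 8.34, 8.35 and 7.86 in WT hosts (-0.26 ± 0.14, 95% interval -0.57 to 0.04, adjusted p = 0.5). Mrc1 lay between 10.97 and 11.23 in Myd88-/- hosts and between 10.84 and 11.04 in WT hosts (0.14 ± 0.08, 95% interval -0.03 to 0.31, adjusted p = 0.526). Cd209d lay between 4.08 and 4.67 in Myd88-/- hosts and between 3.66 and 4.51 in WT hosts (0.17 ± 0.16, adjusted p = 0.754). Of 24 other C-type lectin receptors, 0 rose and 3 fell, beside 1.48 percent of all genes called. The log2 differences were -0.97 for Clec4b1, -0.43 for Clec4e and -0.52 for Clec4a2. None of the 28 genes of alternative activation was called, with a median of -0.04 against 0.01 over all genes. Of 10 monocyte markers, 6 were lower and 0 higher in Myd88-/- hosts. The mean signal of 10 lay between 7.30 and 7.51 in Myd88-/- hosts and between 7.83 and 8.06 in WT hosts, and their part in the Mgl2 and Cd209a differences was not tested.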

How the data were processed

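RNA of mouse tumour-associated macrophages (100 ng per array) was measured on HT_MG-430_PM and Mouse Gene 2.0 ST chips. The authors deposited 1 log2 signal for each probe set and array. According to the submitters' processing notes these were computed by RMA, and Affymetrix Expression Console 1.1 was the software. RMA puts arrays on 1 distribution, so a global shift in RNA content would be removed. The genome build, and which arrays were normalized as 1 set, are not given in the sources used here. Array medians differed between experiments (3.84 to 3.93 for tumour models, 2.95 to 3.03 for hosts, 5.31 to 5.5 for sorted cells), so each experiment was fitted apart.

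GEO's platform annotation gave the gene names: 28898 of 45141 and 23521 of 41345 probe sets had 1 symbol, and 28689 and 23328 of these matched the RefSeq gene table. Genes were tested when above the 40th percentile of probe sets in at least 3 (tumour models), 5 (host experiment) or 2 (sorted) arrays. All 5 lectin genes passed on both chips. limma 3.58.1 (lmFit, eBayes, two-sided) in R 4.3.3 gave differences, p-values were adjusted by Benjamini-Hochberg across the genes of each fit, and a call was made at an adjusted p under 0.05. All 16 sorted arrays entered a single fit of 8 groups, which left 8 residual degrees of freedom and 1 shared estimate of the spread. Values after ± are standard errors of log2 differences. The fits were tested on simulated data.

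The members and all gene lists were chosen with earlier results of these data known. Besides the 5 genes, up to 4 called genes of smallest p were named from a list, or 2 where none was called, and for each lectin gene the 3 genes of highest r, and any other gene is said to have been looked up later. Promoters came from RefSeq, for 4 of the 5 genes. Alternatives were another summary of probe sets, no filter, quantile normalization, an intensity trend, a replicate block, only the arrays compared, and leaving out each array.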

Additional observations from a re-analysis of the deposited data

Results flagged for a closer look

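In the host experiment 10 groups of 5 values were searched for an array far from the others, and 1 was found: Mgl2 in replicate 2 of the Myd88-/- hosts, at 6.89 where the other 4 arrays lay between 6.0 and 6.23. Chance gives about 1 such array in 20 groups. Between populations, the double KO difference from WT was larger in C than in A by 3.66 for Mgl2 and by 2.21 for Cd209d, in a test of the difference itself (limma adjusted p = 0.00028 and 0.0242). The Cd209d call was lost in several fits that left out a single array, as given above. The WT and double KO arrays of A read both genes near the lower end of the chip.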

How the results depend on the processing

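Leaving out 1 array at a time gave 0 to 1 lectin genes called for NB against EG7 and for Myd88-/- against WT hosts, where all arrays gave 0. It gave 0 of C against A in Myd88 cKO (1 with all arrays), 1 to 2 for TNFR1-/- against WT in C (2), 0 to 2 for Myd88 cKO against WT in A (2), 0 to 1 for double KO against WT in A (1), 0 to 1 for the departure of the double KO in A (0), 0 to 2 for the TNFR1-/- difference between C and A (0) and 1 to 2 for that of double KO (2). The intensity trend gave 1 for Myd88 cKO against WT in A and 1 for the TNFR1-/- difference between populations. Quantile normalization gave 0 for double KO against WT in A and 1 for the double KO difference between populations, and in NB against EG7 it moved the median of all genes to -0.118, against -0.01 as deposited. Fits of only the arrays compared gave 2 for C against A in Myd88 cKO, 0 for Myd88 cKO against WT in A and 0 for double KO against WT in A. The cause was not tested in any of these.

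Of 89 lectin gene differences followed through the alternatives, 13 reversed their sign in at least 1 alternative, and none of these 13 was among the 26 that were called. The 89 leave out part of the departures, of the differences between populations, and of double KO against a single genotype. Cd209a reversed with the other probe set in C against A in double KO (3.35), in Myd88 cKO against WT in C (-1.05), in double KO against Myd88 cKO in C (2.75), and in TNFR1-/- (-0.15) and Myd88 cKO (-0.075) against WT in A. With the mean of its probe sets it gave 1.64, -0.35 and 1.26 in the first 3 of these. With quantile normalization it gave -0.0919 in C against A averaged over genotypes, -0.27 in WT, and -0.0073 in Myd88 cKO and -0.0155 in double KO against WT in A. Leaving out single arrays gave -0.035 to 0.285 for Cd209a in C against A in WT, -0.305 to 0.425 for Cd209d in C against A in Myd88 cKO, -0.275 to 0.055 for Clec10a in Myd88 cKO against WT in C, and, against WT in A, -0.17 to 0.2 for Clec10a in Myd88 cKO, -0.475 to 0.255 for Cd209d in Myd88 cKO and -0.295 to 0.105 for Cd209d in TNFR1-/-. Outside the 89, Cd209a also reversed with its other probe set. It gave 1.06 for the departure in C, 0.37 for that in A, and 0.015 for double KO against TNFR1-/- in C. For the difference between populations it gave -0.97 in Myd88 cKO and 1.56 in double KO.

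The share of all genes called ranged over the alternatives from 5.14 to 19.5 percent for NB against EG7, from 0.0121 to 0.431 for TNFR1-/- and from 0.0424 to 0.879 for double KO against WT in C, and in A from 0.0485 to 9.25 for Myd88 cKO, from 0.00651 to 10.7 for TNFR1-/- and from 0 to 14.3 for double KO. It ranged from 0.0182 to 3.32 percent for the departure in A, and for the difference between populations from 0 to 1.81 for TNFR1-/-, from 0 to 0.219 for Myd88 cKO and from 0.0121 to 0.596 for double KO. Same-numbered arrays did not deviate together throughout (r from -0.251 to 0.259), so the numbers were not taken as pairs. With the replicate block 1 lectin gene was called for Myd88 cKO against WT in A, and the genotype-by-replicate block gave 2 for C against A in Myd88 cKO. With the block, 10.8 percent of genes were called in NB against EG7 and 1.13 in the host experiment. With numbers crossed, chosen after seeing the data, 4 lectin genes and 6.84 percent of genes were called for C against A in double KO, and 0 and 4.13 percent for TNFR1-/- against WT in A.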
